A study of Drosophila melanogaster with 3 samples.

Results

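Small nucleolar RNAs (snoRNAs) are short non-coding RNAs that guide chemical changes to ribosomal RNA. The genes described here are all 269 of the 18164 annotated fruit fly genes, transposable elements aside, that carry the biotype snoRNA in the Ensembl annotation, together with the 95 genes that host them. A host is a gene on the same strand whose span holds the whole snoRNA. By the class in their names, 109 were box C/D snoRNAs, 114 were H/ACA snoRNAs, 16 were scaRNAs (relatives found in Cajal bodies) and 30 had no class in the name. Of the 269, 247 lay in a host and 22 did not. No measured value entered this rule, although the genes were chosen with earlier results of these data known.

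The data were chromatin immunoprecipitation sequencing (ChIP-seq) of Xbp1, a bZIP transcription factor best known for its part in the unfolded protein response. The samples were 3 biological replicates of whole Drosophila melanogaster embryos aged 0 to 24 h, male and female pooled, of the line Xbp1-GFP, and they formed 1 group. All carried a transgene, inserted in the genome and stably expressed, that encodes Xbp1 with GFP at its C terminus. Chromatin was precipitated through the GFP, although the antibody field of the labels reads Xbp1. The labels name neither the promoter that drives the transgene nor the cells that make the fusion. Each list therefore averages over whichever embryonic cells made it. The files were the authors' peak lists, and the main list held 7291 peaks of the pooled replicates that passed a threshold on the irreproducible discovery rate, called thresholded peaks below.

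Box C/D snoRNAs guide ribose methylation with a core of Fib (fibrillarin), nop5, Nop56 and hoip. H/ACA snoRNAs guide the conversion of uridine to pseudouridine with Nop60B (the fly dyskerin), NHP2, Gar1 and Nop10. In flies, as in vertebrates, most snoRNAs have no promoter of their own: they are cut from the introns of a host transcript, so the host promoter drives them. Many hosts make ribosomal proteins or other parts of the translation machinery. Others, the Uhg genes, are non-coding and are known mainly for the snoRNAs in their introns.

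The H/ACA snoRNAs of Arpc2, a subunit of the Arp2/3 actin-nucleating complex, show how such a locus is built. Arpc2 held 17 H/ACA snoRNAs and no other member, more than any other host. Of these, 10 belong to the family Psi18S-525 and 7 to Psi18S-640, and an 11th copy of the first family lay in Msp300. The first pair of copies, at chr2L:20418348-20418481 and chr2L:20418670-20418804 on the plus strand in the dm6 (Release 6) build, lay in Arpc2 introns 1258 and 1580 bp downstream of the nearest start site. They are shown because repeated copies such as these make up much of the class, with the ACA near the 3′ end in capitals.
snoRNA:Psi18S-525a: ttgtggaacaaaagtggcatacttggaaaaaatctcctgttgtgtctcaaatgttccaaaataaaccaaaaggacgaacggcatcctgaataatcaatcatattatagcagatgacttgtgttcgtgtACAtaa
snoRNA:Psi18S-525b: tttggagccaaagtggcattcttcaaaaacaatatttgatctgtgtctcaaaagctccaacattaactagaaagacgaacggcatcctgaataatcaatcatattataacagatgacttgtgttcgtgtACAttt

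Across the genome, 119 snoRNA genes fell into 37 families whose names differ by a last letter. In 35 of the families all copies shared a host. Identity between copies had a median of 75.0% within the Psi18S-525 family, with a range from 65.0% to 90.4% over its pairs. The classes in the names matched the sequence boxes: an ACA lay in the last 10 bases of 110 of 114 H/ACA genes (96.5%) and of 8 of 109 C/D genes (7.34%). Both a box C (TGATGA, in the first 25 bases) and a box D (CTGA, in the last 20) were read in 76 of the C/D genes (69.7%) and in 0 of the 114 H/ACA genes. The median length was 79 bases for C/D and 140 bases for H/ACA genes. Of the 247 hosted snoRNAs, 227 lay outside all exons of their hosts, and the median distance from the snoRNA start to the nearest host start site was 1433 bp.

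Xbp1-GFP peaks lay at the promoters of the hosts and seldom at the snoRNAs. A gene was taken to have a peak where a thresholded summit lay within 500 bp of a start. Of the 95 hosts, 69 had such a peak at an annotated start site (72.6%, exact Clopper-Pearson 95% interval 62.5 to 81.3), against 30.4% of 13945 protein-coding genes. Of the 269 snoRNA genes, 23 had a summit that close to their own start (8.55%, interval 5.50 to 12.6), against 23.8% of all other annotated genes at their 5′ end. Through their hosts, 203 of the 247 hosted snoRNAs (82.2%, interval 76.8 to 86.7) had a peak at a host start site. These intervals cover counting error only, and genes that share a peak or a host are not independent.

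The same picture held in each replicate. In the 7291 strongest peaks of each, the share of hosts with a peak was 70.5%, 73.7% and 67.4% in replicates 1, 2 and 3 (70.5% ± 3.16, SD, n = 3), and that of snoRNA genes at their own start was 6.32%, 9.29% and 5.58% (7.06% ± 1.97). The protein-coding share in these equally long lists was 29.6%, 32.8% and 28.0% (30.1% ± 2.45), so the hosts lay above it in all 3. All other annotated genes stood at 23.2%, 25.7% and 21.8% at their 5′ end, so the snoRNA genes lay below them in all 3. The SD is that of 3 lists read at the same genes and does not measure variation between genes. The whole replicate lists hold many weaker peaks, and there 82, 88 and 77 hosts had a summit (86.3%, 92.6% and 81.1%) where the protein-coding background was 47.1%, 56.7% and 43.2%. In the whole pooled list the host share was 90.5% against 53.4%.

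**Figure D1:**
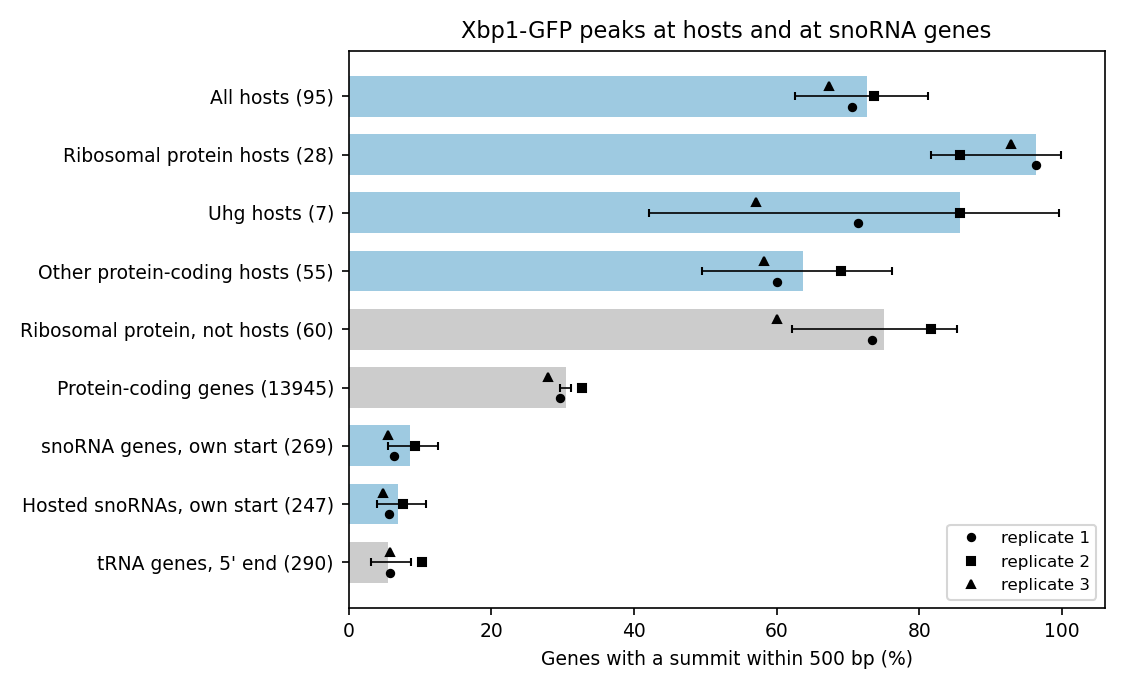
Share of genes with a summit within 500 bp, in percent, for hosts and snoRNA genes (blue) and comparison genes (grey). Bars are the thresholded list with exact 95% intervals, and points are the 7291 strongest peaks of each replicate; hosts stand at 72.6% and snoRNA genes at 8.55%, with tRNA genes at 5.52%.

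The difference between hosts and other genes was as large among genes with a single start site. Hosts and protein-coding genes both had a median of 1 start site. Where there was only 1, 33 of 49 hosts had a peak (67.3%) against 24.8% of protein-coding genes. With only the 5′ end of each gene counted, 64 of the 95 hosts had a peak (67.4%), against 28.1% of protein-coding genes. No test was run on these lists, since the members were chosen with results of these data known.

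The summits at hosts sat close to the start site, mostly just upstream of it. Their median distance from the nearest start was 80 bp over the 69 hosts, against 126 bp over 4242 protein-coding genes with a peak. The summit was upstream in 58 of the 69 (84.1%), and in 89.1% of the protein-coding genes. The same peak also lay at the start of another protein-coding gene for 34 of the 69 hosts (49.3%), against 57.8% of protein-coding genes with a peak. Hosts named in this report with such a peak were RpL28, RpL14, RpS20, RpS6, Stt3A, Irbp, Arpc2, kra, Hrb98DE, Nop60B, Fib, skd, Uhg2, Uhg5 and Uhg8. At those shared peaks the list does not tell which of the neighbouring promoters the protein occupied.

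**Figure D2:**
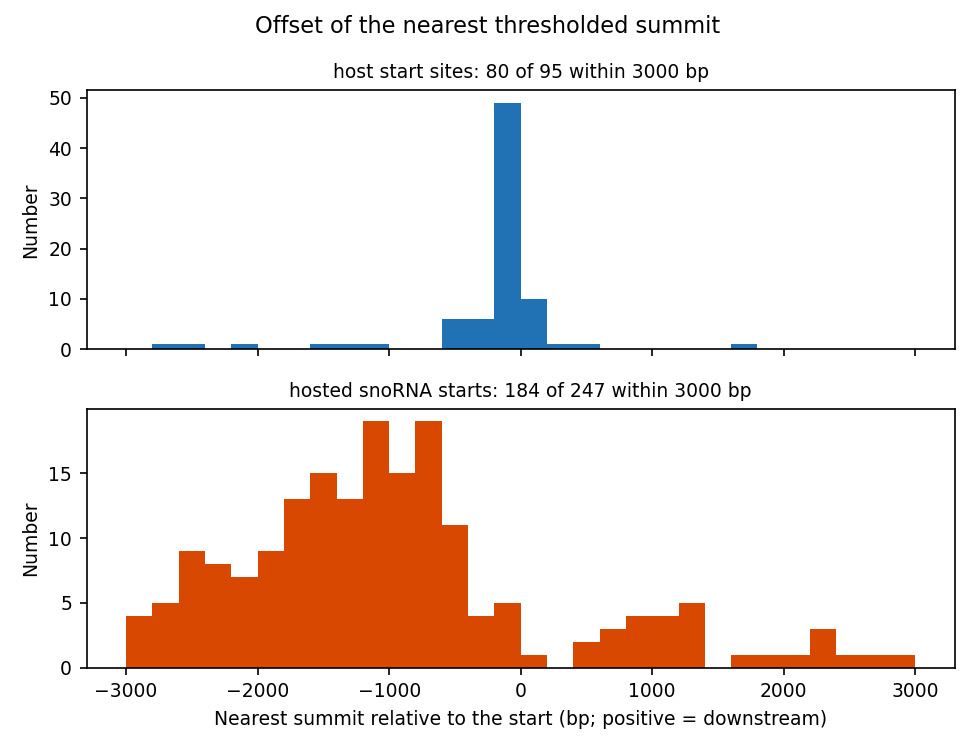
Position of the nearest thresholded summit relative to 95 host start sites (top) and 247 hosted snoRNA starts (bottom), in bp along the gene's strand, in bins of 200 bp, for those within 3000 bp. Within 200 bp lay 59 host summits but 6 snoRNA summits, and most snoRNAs had their nearest summit upstream.

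Ribosomal protein genes were taken by symbol, RpS or RpL followed by a digit, so a gene of another name is not counted among them. They made up 28 of the hosts and held 74 snoRNAs. A peak lay at 27 of the 28 (96.4%, interval 81.7 to 99.9), RpS9 being the exception. Of the 60 genes of such symbols that host no snoRNA, 45 had a peak (75.0%, interval 62.1 to 85.3). The 88 genes found by symbol were not sorted further, so the hosts and the others may differ in more than their snoRNAs. In equally long replicate lists the hosts' share was 96.4%, 85.7% and 92.9%, and that of the other ribosomal protein genes was 73.3%, 81.7% and 60.0%. The gap was therefore small in replicate 2 and wide in replicates 1 and 3. Over the genes with a peak the median signal, a value from the authors' peak caller that is used only within 1 list, was 596 in ribosomal protein hosts, 452 in other ribosomal protein genes and 403 in all protein-coding genes.

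RpL23A, which encodes a large-subunit ribosomal protein and holds 4 C/D snoRNAs, had the highest signal of the ribosomal protein hosts. Its peak had a signal of 1464 in the thresholded list, and of 596, 543 and 319 in the lists of replicates 1, 2 and 3. It stood at or above 98.5%, 99.4% and 98.5% of the peaks of those lists. RpS20, a small-subunit protein gene with 2 H/ACA snoRNAs, had a signal of 1345, with 592, 437 and 334 in the replicates. RpL28 (5 C/D snoRNAs) followed at 1047 and RpL14 (2 C/D snoRNAs) at 1045, nearly equal values. RpL28 had 452, 370 and 223 in the replicates and RpL14 had 464, 445 and 140. RpS5a, with 14 H/ACA snoRNAs the ribosomal protein gene that held most, was lower, at 520, with 218, 200 and 111 in the replicates, and none of its snoRNAs had a peak of its own.

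Many fly genes of the translation machinery start at a polypyrimidine initiator, the TCT motif, in place of the usual initiator. The strand of the gene was searched for CCTTTC, or for that word with T as its first letter, its last letter or both, within 10 bases of the position 1 base before the annotated start. A match was found at 16 of the 28 ribosomal protein hosts (57.1%), 37 of the 60 other ribosomal protein genes (61.7%), 5 of the 67 other hosts (7.46%) and 2.88% of protein-coding genes. The DRE, bound by the fly factor Dref, was searched as TATCGATA, a palindrome read the same on both strands, from 250 bases before to 50 after the start. It was in 20 of the 95 hosts (21.1%) and 8.94% of protein-coding genes. Among genes with a peak, it was in 15 of the 69 hosts (21.7%) and 15.0% of protein-coding genes. By class, it was in 8 of the 28 ribosomal protein hosts (28.6%) and 12 of the 67 other hosts (17.9%). It was more frequent still in ribosomal protein genes that host no snoRNA, at 20 of 60 (33.3%). The motif TGACGTGG, known in mammals as an Xbp1 site of the unfolded protein response, was searched in the same stretch on either strand. It was in 0 of the 95 hosts and 0.380% of protein-coding genes. At so low a share, 0 of 95 does not set the hosts apart. Some summits, such as that of Stt3A 397 bp upstream, lay outside the stretch searched. The core ACGT of TGACGTGG was in 52.6% of hosts and 48.2% of protein-coding genes, a like share for a motif of 4 letters.

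The promoters of RpL23A (chr3L:1668635-1668754, minus strand), RpL28 (chr3L:3222941-3223060, minus), RpL14 (chr3L:8600906-8601025, plus) and RpS5a (chrX:17148245-17148364, minus) are shown beside those of Arpc2 (chr2L:20416957-20417076, plus) and Sf3b3 (chr3L:833366-833485, minus). Each runs from 100 bases upstream of the start site through the first 20 bases of the gene. They show hosts with a peak and a TCT match, a host with a peak and neither motif, and a host with both motifs and no thresholded peak. RpS20, a ribosomal protein host of higher signal than RpL28, had neither motif and is not shown. Capitals mark TCT matches near the last 20 bases and TATCGATA elsewhere.
RpL23A: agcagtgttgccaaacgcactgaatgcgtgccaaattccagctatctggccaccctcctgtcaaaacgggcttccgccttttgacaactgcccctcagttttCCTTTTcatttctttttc
RpL28: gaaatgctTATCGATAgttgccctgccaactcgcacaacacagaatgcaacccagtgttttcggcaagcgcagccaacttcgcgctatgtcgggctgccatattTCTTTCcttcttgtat
RpL14: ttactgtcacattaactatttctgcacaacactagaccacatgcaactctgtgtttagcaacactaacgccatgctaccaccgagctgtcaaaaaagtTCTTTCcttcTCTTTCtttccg
RpS5a: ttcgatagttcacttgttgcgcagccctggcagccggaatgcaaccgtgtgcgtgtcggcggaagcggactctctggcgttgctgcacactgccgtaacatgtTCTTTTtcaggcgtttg
Arpc2: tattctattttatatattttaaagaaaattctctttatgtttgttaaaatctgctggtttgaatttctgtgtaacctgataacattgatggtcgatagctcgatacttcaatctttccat
Sf3b3: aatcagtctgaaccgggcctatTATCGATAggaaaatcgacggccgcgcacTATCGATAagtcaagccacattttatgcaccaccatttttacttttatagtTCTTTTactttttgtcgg

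The summits lay 91 bp upstream of the start at RpL23A, 63 bp upstream at RpL28, 38 bp upstream at RpL14, 81 bp upstream at RpS5a and 14 bp upstream at Arpc2. All of these fall inside the printed stretches. At Sf3b3 the nearest thresholded summit was 4398 bp away. A motif match describes these letters only and says nothing of what is bound.

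By symbol, the other 55 protein-coding hosts were neither ribosomal protein nor translation factor genes, and they held 128 snoRNAs. Of them, 35 had a peak (63.6%, interval 49.6 to 76.2). Stt3A, the catalytic subunit of oligosaccharyltransferase, which attaches sugars to proteins in the endoplasmic reticulum, had the strongest peak of all hosts. Its signal was 1924, rank 130 of 7291, with 781, 727 and 429 in the replicates. The summit lay 397 bp upstream of Stt3A and also within 500 bp of a start of bves. CG1142, the host of scaRNA:MeU5-C46, came next at 1834, with 823, 620 and 394 in the replicates. Msp300, a very large nesprin of muscle, had 1496, with 598, 479 and 419, but its only snoRNA lay 50634 bp from the nearest start site. Further down, drn had a signal of 950 and Irbp, the fly Ku70 of DNA repair, 880.

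Among the protein-coding hosts of 7 or more snoRNAs that make no ribosomal protein, 4 had a thresholded peak, Nop60B (given below) among them, and dom and Sf3b3 had none. Arpc2 had 422, with 199, 126 and 110 in the replicates. The translation regulator kra (8 H/ACA snoRNAs) had 599, with 245, 189 and 163, and its peak also lay at the start of SecS. Hrb98DE, an RNA-binding protein gene with 7 H/ACA snoRNAs, had 323. Its replicates were uneven: the peak stood at or above 87.0%, 64.9% and 87.9% of the peaks of the 3 lists.

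eEF1alpha1 was the only host whose symbol begins with eIF, eEF, EF or eRF, the pattern used here for translation factors. It held 1 snoRNA and had a signal of 786, with 350, 291 and 164 in the replicates.

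Of the 11 non-coding hosts, which held 56 snoRNAs, 6 had a peak (54.5%, interval 23.4 to 83.3). All 6 were Uhg genes, of which the annotation placed 7 among the hosts. The share over all non-coding RNA genes was 9.48%. Uhg4 (5 C/D and 2 H/ACA snoRNAs) had 1496, with 608, 555 and 344 in the replicates, and no coding gene shared its peak. The other 5 were far lower: Uhg8 at 414, Uhg1 (16 C/D snoRNAs) at 287, Uhg3 at 248, Uhg5 (11 C/D snoRNAs) at 233 and Uhg2 at 208. In the lists of replicates 1 and 3, the peaks of Uhg1, Uhg2, Uhg3 and Uhg5 stood at or above only 61.2% to 78.8% of the peaks, whereas in replicate 2 they stood at 86.4% to 89.6%. Uhg8 stood at 89.1%, 86.9% and 91.6% in replicates 1, 2 and 3. The exception among the 7, Uhg7, lies inside the span of RpL23A and holds the same 4 snoRNAs, whose other host had the peak described above.

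By number of snoRNAs, 34 of 56 hosts of a single snoRNA had a peak (60.7%), all 18 hosts of 2 or 3 did, and 17 of 21 hosts of 4 or more did (81.0%). The intervals of the last pair overlap, at 81.5 to 100 and 58.1 to 94.6. The 4 hosts of 4 or more with no peak were dom, Sf3b3, lncRNA:CR45184 and Uhg7. Median signals in the same order were 534, 580 and 422, so a larger number of snoRNAs did not go with a stronger peak.

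**Figure D3:**
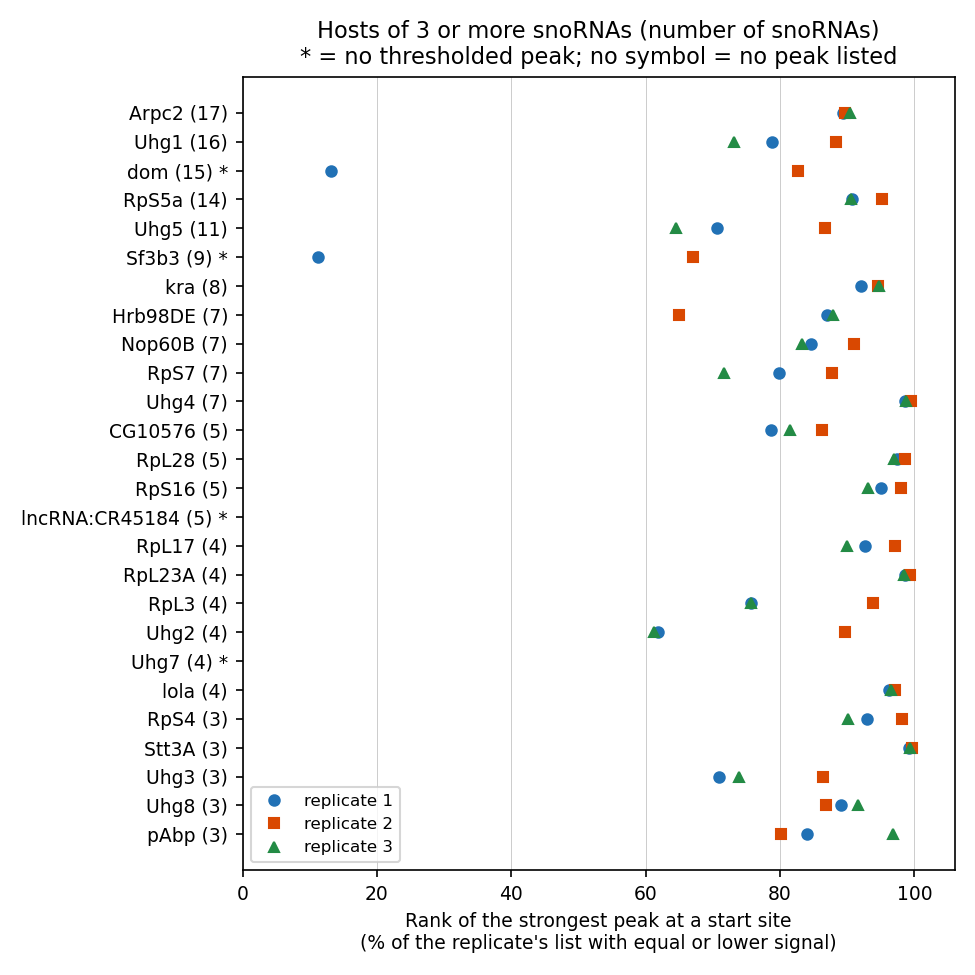
Strongest peak at the start sites of each host of 3 or more snoRNAs, as the share of that replicate's list with equal or lower signal, in percent. Symbols are the 3 replicates and the number of snoRNAs is in brackets; Arpc2 sits between 89.3% and 90.4% in all 3, whereas dom and Sf3b3, marked as having no thresholded peak, have no peak in replicate 3.

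The hosts with no thresholded peak included some of the richest in snoRNAs. The gene dom, which encodes the ATPase of a chromatin remodelling complex and holds 15 snoRNAs, had its nearest thresholded summit 584 bp from the start, just beyond the limit. Within 500 bp the pooled list held a weaker peak of signal 125, listed with 31.3 in replicate 1 and 86.1 in replicate 2. Sf3b3, a splicing factor subunit with 9 snoRNAs, had a pooled peak of 82.6, with 30.8 in replicate 1 and 48.9 in replicate 2, and 5 of its snoRNAs lie also in lncRNA:CR45184, which had no peak in any replicate list. RpS9 had 60.5 in replicate 1 and 47.8 in replicate 2. Of the 26 hosts with no thresholded peak, 13, 21 and 8 had a summit in the whole lists of replicates 1, 2 and 3. In the pooled list 17 of the 26 had a summit, which for 8 had a q-value of at most 0.05. A further 5, CG31191, Ddx56, tn, lncRNA:CR45184 and Uhg7, had no summit in the pooled list or in any replicate list.

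At the 69 hosts with a thresholded peak, all 69 had a summit in the list of replicate 1, 67 in that of replicate 2 and 69 in that of replicate 3. The median signal over the 69 was 520 in the thresholded list, against 403 over protein-coding genes with a peak and 319 over all thresholded peaks. Over the 82, 88 and 77 hosts with a summit in the whole lists of replicates 1, 2 and 3, the median was 174, 137 and 104, and at protein-coding genes 103, 77.1 and 60.3. The hosts were higher in all 3.

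In the thresholded list a host with a peak was about as frequent for both main classes of snoRNA. There was one for 87 of 101 hosted C/D snoRNAs (86.1%, interval 77.8 to 92.2) and 88 of 105 hosted H/ACA snoRNAs (83.8%, interval 75.3 to 90.3). In equally long lists of replicates 1, 2 and 3 the share was 81.2%, 85.1% and 67.3% for C/D and 83.8%, 88.6% and 83.8% for H/ACA snoRNAs, so the C/D share was lower in all 3 and by most in replicate 3. For scaRNAs there was one for 9 of 14 (64.3%), with an interval, 35.1 to 87.2, that overlaps both.

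The snoRNA starts themselves were seldom near a summit. Hosted snoRNAs had a summit at their own start in 17 of 247 cases (6.88%, interval 4.06 to 10.8), and 7.71% of all bases in the spans of the hosts lie that close to a summit. The interval of the snoRNA share holds that of the bases. For scale, tRNA genes, short genes with their own RNA polymerase III promoters, had a summit in 16 of 290 cases (5.52%). With the weaker peaks of the whole lists, 41 hosted snoRNAs had a pooled summit (16.6%) where 23.6% of host bases lay as close, and in replicates 1, 2 and 3 the shares were 12.6%, 30.0% and 17.0% beside 18.8%, 28.9% and 19.0% of host bases. Over all 269 snoRNA genes, the pooled list gave 21.9% against 45.6% of all other genes at the 5′ end. The replicates gave 16.0%, 33.8% and 17.1% against 39.2%, 49.1% and 36.1%.

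Where a hosted snoRNA did have a summit at its start, the peak mostly lay near a host start as well. In 14 of the 17 cases the same peak lay within 500 bp of a host start site. Those at Uhg2, Uhg5 and RpL28 lay also at the start of another gene. Of the 35 snoRNAs that start within 500 bp of a host start, 14 had a peak (40.0%). Of the 51 that start farther away, up to 1000 bp, 0 did (interval 0 to 6.98), although 48 of them had a host with a peak. Of the 75 beyond that, up to 2000 bp, 1 did, and of the 86 still farther away 2 did. Conversely, 57 of the 69 hosts with a peak had no snoRNA with a peak at its start.

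**Figure D4:**
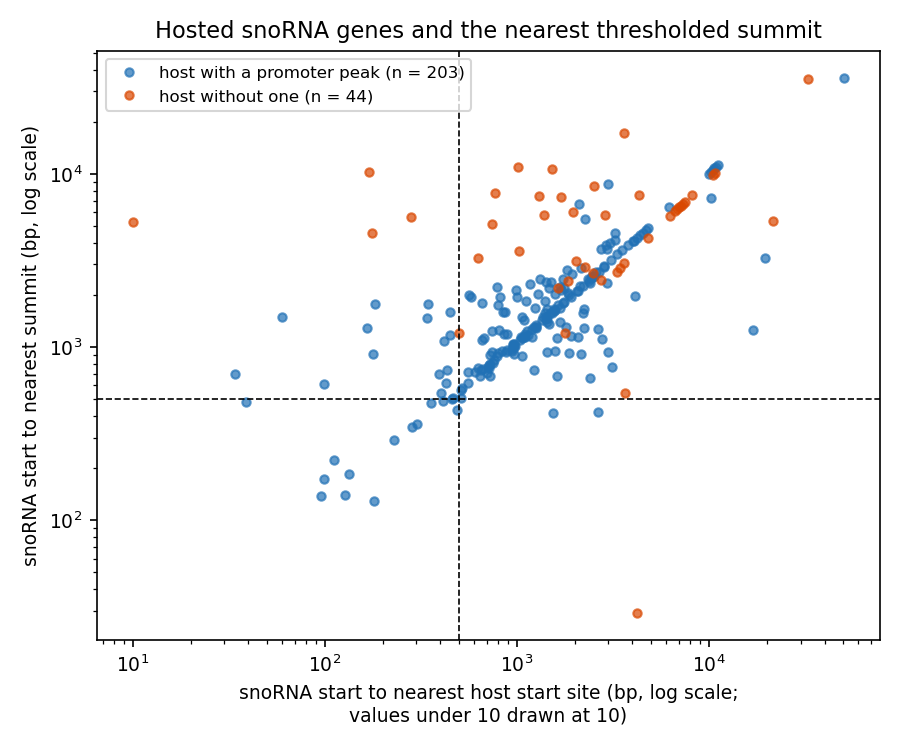
Distance from each of 247 hosted snoRNA starts to the nearest host start site (horizontal, bp, log scale) and to the nearest thresholded summit (vertical, bp, log scale), for hosts with a peak (blue) and without (orange). Dashed lines mark 500 bp; 17 points fall on or below the horizontal line, and most blue points lie along the diagonal, where the nearest summit is about as far as the host start.

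From the snoRNAs with the highest signals at their own start, 4 are shown with their boxes. Or-CD11a (chr3L:3222475-3222541, minus strand) lies in RpL28 beside an internal start site, Me28S-A774b (chr3L:13023580-13023652, plus) in RpS12, Psi18S-1275 (chr3R:9778398-9778537, plus) in RpS29 and Psi18S-920 (chr3L:11822984-11823124, plus) in RpL10Ab. In the first pair capitals mark box C and box D, and in the second pair the ACA.
snoRNA:Or-CD11a: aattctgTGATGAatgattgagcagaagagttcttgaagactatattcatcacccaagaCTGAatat
snoRNA:Me28S-A774b: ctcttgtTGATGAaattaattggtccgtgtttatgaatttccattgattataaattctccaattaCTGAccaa
snoRNA:Psi18S-1275: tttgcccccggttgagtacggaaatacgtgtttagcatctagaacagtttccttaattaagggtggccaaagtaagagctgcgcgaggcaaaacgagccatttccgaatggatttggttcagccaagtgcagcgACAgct
snoRNA:Psi18S-920: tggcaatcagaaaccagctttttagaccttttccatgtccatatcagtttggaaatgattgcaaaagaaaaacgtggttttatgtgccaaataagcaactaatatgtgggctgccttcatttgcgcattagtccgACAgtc

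All 4 of these summits lay upstream of the snoRNA, by 482 bp for Or-CD11a, 292 bp for Me28S-A774b, 360 bp for Psi18S-1275 and 184 bp for Psi18S-920. Their signals were 1047, 590, 737 and 357, and each of these peaks also lay at a start site of the host. The strongest peak at any snoRNA start, with 1496, was that of Uhg4, which lay 173 bp upstream of Psi28S-2949 and 486 bp upstream of Or-aca5. Psi28S-1232 in RpL17 had 632, with a summit 475 bp upstream.

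A summit away from the host start was seen at 3 hosted snoRNAs, of which 2 are described. Or-CD4, in the far part of Uhg5, had a signal of 532, with 291, 161 and 78.8 in the replicates, and its summit lay 420 bp downstream of its start, in a separate peak from that at the Uhg5 promoter. Me18S-C1968 in Swim had 179, with a summit 29 bp downstream, and 72.8, 74.4 and 27.6 in the replicates.

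Of the 22 snoRNA genes outside any host, 6 had a summit at their start (27.3%, interval 10.7 to 50.2), close to the 23.8% of all other annotated genes, but these 6 rested on 4 peaks. In equally long lists of the replicates the share was 13.6%, 27.3% and 13.6%. With the weaker peaks the share was higher and uneven: 18 of the 22 had a summit in the whole pooled list (81.8%, interval 59.7 to 94.8) against 45.6% of other genes. In the whole lists of replicates 1, 2 and 3 the share was 54.5%, 77.3% and 18.2% against 39.2%, 49.1% and 36.1%, above the background in the first pair and below it in replicate 3. Or-CD13 had a signal of 707, with 311, 211 and 180 in the replicates, and its summit lay 482 bp downstream of its start. The snoRNA gene FBgn0065076, near a tRNA gene, had 278, with 138, 159 and 53.9, in a peak that also lay at tRNA:Glu-TTC-1-5. Psi28S-3342 had 202, with 92.3, 64.8 and 55.8. Psi28S-1153 and its neighbours FBgn0263472 and FBgn0263459 shared a peak of 194 at the start of CG13334, listed with 61.2 and 101 in replicates 1 and 2 and absent from replicate 3. The 3 genes of U3, the snoRNA needed to cut the ribosomal RNA precursor, are transcribed from their own promoters, and none had a thresholded summit within 500 bp: the nearest lay 3375 bp from U3:54Aa, 5262 bp from U3:54Ab and 14903 bp from U3:9B. Weaker summits lay within that distance of U3:54Ab, with 95.3 in the pooled list and 44.5, 22.0 and 23.7 in the replicates, and of U3:9B, with 82.5 in the pooled list and 28.6 and 33.2 in replicates 1 and 2. U3:54Aa had none in any list.

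The count of 23 snoRNA genes depended on the peak list and on the distance. The 23 rested on 18 peaks, and 16 of the 23 had a summit at the same start in all 3 replicate lists. With only thresholded peaks overlapped by a strong peak of both other replicates, the count was 13 without replicate 1, 14 without replicate 2 and 15 without replicate 3. The members nearest the limit were Or-aca5 at 486 bp and Me18S-G1620 at 500 bp on the inside, and U49:66Da at 505 bp and Me18S-C1096 at 509 bp on the outside. For the hosts they were skd at 440 bp and RpS6 at 481 bp inside, and CR33222 at 510 bp and tou at 562 bp outside.

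The genes that build and process snoRNA particles were read in the same way, from 4 lists of 28 genes. A thresholded peak lay at the start of 16 of the 28 (57.1%), beside the 30.4% of all protein-coding genes. Of the box C/D core proteins 2 of 4 had a peak: Fib, the methyltransferase, at 604, with 230, 247 and 129 in the replicates, and nop5 at 376, with 164, 111 and 102. Both genes are hosts themselves, each of 1 snoRNA. Nop56 and hoip had no thresholded peak, though both had a weaker summit in all 3 replicate lists.

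Of the H/ACA core proteins 2 of 4 had a peak: NHP2 at 771, with 325, 276 and 176 in the replicates, and Nop60B, the pseudouridine synthase and host of 7 snoRNAs, at 348, with 149, 139 and 70.9. Gar1 had a summit in replicate 2 only, and Nop10 in replicates 1 and 2. Of 7 genes for the assembly of the particles 6 had a peak. Pih1D1, a subunit of the R2TP chaperone complex, had 1490, with 719, 384 and 391 in the replicates. The ATPases of that complex, pont and rept, had 1242 and 308, so they stood far apart. Nopp140, a nucleolar chaperone of the particles, had 681, spag 332 and Nufip 266. CG10341 had none.

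Of 13 genes for the release and trimming of intronic snoRNAs 6 had a peak (46.2%, interval 19.2 to 74.9). That interval holds the 30.4% of all protein-coding genes. The exosome subunits Csl4, Rrp6 and Ski6 had the highest signals, 746, 583 and 513. Among those with no peak were ldbr, the lariat debranching enzyme, with a weaker summit in all 3 replicate lists, and the exosome subunit Mtr3, with none in any.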

How the data were processed

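The members and lists were chosen with earlier results of these data known. The labels give 3 biological replicates in 1 group, with chromatin sonicated to 200 to 800 bp. Per the deposited text lists, a control alignment entered the peak calls, and the pooled list and the 3 replicate lists together gave the thresholded list. Which aligner and peak caller were used is not given in the sources. No control was analysed here. The authors deposited a signal per peak, of unstated scale, and a −log10 of the q-value. The replicate lists held 21686, 30000 and 23357 peaks. No peak was identical between replicates. Read depth is unknown.

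Summits in dm6 were compared with transcript starts of Ensembl BDGP6.54 (release 115). The snoRNA starts are 5′ ends. A gene's peak is the strongest within 500 bp. Equally long lists are the 7291 strongest peaks of a replicate. Sequences were read from the Release 6 genome. Of 28 listed protein genes, 25 matched by symbol and 3 by synonym. On simulated summits planted within 500 bp of 200 start sites, 200 were found, which checks the search step only. The tools were Python 3.11.15, NumPy 2.4.6, SciPy 1.17.1 and pandas 2.3.3.

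Named hosts are the 10 of highest signal, the 8 with most snoRNAs and those of 3 or more snoRNAs with no peak. Named snoRNAs are the 8 of highest signal, every unhosted one with a peak and those nearest the limit. Of the processing genes the 3 highest and 2 without a peak are named. Other hosts and snoRNAs, such as RpS9, eEF1alpha1, hosts with no summit in any list, the smaller Uhg genes and the U3 genes, were named after their values were seen. Alternatives were another distance, other peak lists, other definitions of a host or its start, and leaving out each replicate. The values of 1 host and its snoRNAs are not reported here.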

Additional observations from a re-analysis of the deposited data

How the results depend on the processing

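No paired analysis was possible because the 3 samples form 1 group. The share of hosts with a peak, 72.6% in the report, was 62.1% at 200 bp, 76.8% at 1000 bp, 53.7% in the stronger 3645 thresholded peaks, 81.1% in pooled peaks at a q-value limit of 0.05, 62.1% in peaks strong in all 3 replicates, 67.4% at the 5′ end only and 62.1% to 66.3% with a replicate left out. The protein-coding share, 30.4%, was 22.5%, 34.3%, 18.9%, 39.8%, 24.0%, 28.1% and 24.6% to 26.2% in the same order, so the host share stayed above it under each. The snoRNA share at the own start, 8.55%, was 2.97%, 26.8%, 3.35%, 10.8% and 4.83% under the first 5 of these, and 4.83% to 5.58% with a replicate left out. That of snoRNAs whose host had a peak, 82.2%, was 75.3%, 89.1%, 57.5%, 90.7% and 69.6%, and 69.6% to 74.5% with a replicate left out. The own-start shares lay below the protein-coding shares above, which count any start site, and the shares by host lay above them. No share over all other genes at their 5′ end, or over host bases, is given for these alternatives. The share of the snoRNAs with an own-start peak whose peak also lay at a host start, 60.9%, was 75.0% at 1000 bp, 77.8% in the stronger peaks, 69.2% in peaks strong in all 3 replicates, 69.2% to 73.3% with a replicate left out, and 26.1% with protein-coding hosts only, which by construction drops the Uhg genes. The median signal at hosts, 520, ranged from 422 to 632 and moved by under 1.5 times under all 11 alternatives. The stronger lists hold fewer peaks by construction; no other cause was tested. Depth is unknown, so a missing peak was not detectable in that list and is not shown to be absent.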
